A study of Homo sapiens with 18 samples.

Results

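The 8 genes described here, GSTP1, RARB, RASSF1, APC, EDNRB, PTGS2, CD44 and ABCB1, have long been studied for promoter methylation in prostate cancer. They were given as a list of names, in which MDR1 is the older name of ABCB1, and the rule that picks their CpGs uses no measured level. For each gene, the 5′ end of the gene and of its main alternative protein-coding transcripts was taken from GENCODE 44 on GRCh37 (hg19), and a window of 1000 bp on either side was examined. A gene with more than 1 such end has windows numbered from its outermost end. This gave 15 of the 26098 windows of 19811 protein-coding genes. The windows held 352 CpGs with at least 10 reads in any cell line of the 3077548 such CpGs in the series, and 254 of them had that coverage in all 3 cell lines.

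Methylation of cytosines in CpG-dense promoters is a stable mark that accompanies gene silencing, while most promoters of this kind are unmethylated in normal cells. GSTP1 encodes a glutathione transferase that detoxifies electrophiles, and methylation of its promoter is among the best known DNA marks of prostate cancer. RARB encodes a retinoic acid receptor, RASSF1 a Ras-association scaffold with tumour suppressor function, APC a component of the complex that degrades beta-catenin, EDNRB an endothelin receptor, PTGS2 the inducible cyclooxygenase, CD44 a hyaluronan receptor and ABCB1 the drug efflux pump P-glycoprotein.

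Genomic DNA came from 3 established human cancer cell lines grown in culture: HCT15 from a colorectal carcinoma, and DU145 and PC3 from prostate cancers, with no treatment and no normal prostate cells among them. Methylation was measured by reduced representation bisulfite sequencing (RRBS), which reads methylated and unmethylated cytosines at fragments cut at CCGG, in 1 library per cell line. The same cell lines were profiled by MBD-seq, in which a methyl-CpG binding domain captures methylated fragments, with 5 commercial kits (MethylMagnet, MethylCollector, MethylCollector Ultra, MethylCap and MethylMiner) and 1 library per kit and cell line. Every kit received fragmented DNA of each cell line, with no separate cultures named, so a comparison across kits measures the spread between kits and not between cultures. A difference between cell lines is thus a difference between single lines, and tissue of origin cannot be told apart from the line.

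The RRBS files held 2195724 CpGs with at least 10 reads in HCT15, 2398973 in DU145 and 2377143 in PC3. Their median coverage was 23, 33 and 26 reads. The MBD-seq libraries held 10040 to 7344098 fragments, so that a window of 2 kb received few fragments in most of them. The labels were checked at CpGs that RRBS found methylated in 1 line and not in the other two, and 12 of the 15 libraries were deepest at the CpGs of their own line. The 3 MethylMiner libraries were not, with depths of 2.18 to 4.48 times the genome mean at the CpGs of each line. Test results and sums that use them are given with and without them.

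The stretches of 250 bases just upstream of the 5′ ends of GSTP1, RARB 2 and APC 1 are shown first, since they hold the promoter sequence in which the RRBS reads fell and overlap no annotated exon. Capitals mark the CpGs with at least 10 reads in any cell line. The GSTP1 stretch (GRCh37, chr11:67350963-67351212, plus strand) holds 29 CpGs, of which 10 were read, and 7 CCGG sites. The RARB 2 stretch (chr3:24870564-24870813, plus strand) holds 28 CpGs, of which 16 were read, and 3 CCGG sites. The 2 in RARB 2 is a window number and not the name of a transcript. The 5′ end of the MANE transcript of RARB lies 598940 bp downstream of this end, at RARB 3. The APC 1 stretch (chr5:112042965-112043214, plus strand) holds 12 CpGs, of which 8 were read, and 2 CCGG sites. CCGG, which reads the same on both strands, occurs in 91.9% of all windows.
GSTP1: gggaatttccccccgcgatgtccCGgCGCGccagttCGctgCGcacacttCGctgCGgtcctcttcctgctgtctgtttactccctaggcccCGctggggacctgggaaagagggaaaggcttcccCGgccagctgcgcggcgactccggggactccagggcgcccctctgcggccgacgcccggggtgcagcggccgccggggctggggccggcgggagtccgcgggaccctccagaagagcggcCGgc
RARB 2: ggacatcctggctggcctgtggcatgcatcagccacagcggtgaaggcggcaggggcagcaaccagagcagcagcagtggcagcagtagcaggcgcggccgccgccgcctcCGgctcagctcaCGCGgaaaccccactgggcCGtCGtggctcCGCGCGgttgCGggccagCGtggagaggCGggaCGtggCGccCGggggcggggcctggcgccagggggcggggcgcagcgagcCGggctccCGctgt
APC 1: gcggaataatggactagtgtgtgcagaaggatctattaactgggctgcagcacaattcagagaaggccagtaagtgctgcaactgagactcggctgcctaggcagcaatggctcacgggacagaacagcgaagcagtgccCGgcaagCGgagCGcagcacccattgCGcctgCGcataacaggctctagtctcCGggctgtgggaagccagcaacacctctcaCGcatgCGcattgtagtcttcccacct

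The CpGs with the widest range of methylation over the 3 cell lines in 4 windows, all intronic, are shown with 30 bases of context on the strand of the gene, with the CpG itself in capitals. They lie at chr11:67351777-67351778 for GSTP1, chr7:87229779-87229780 for ABCB1 2 (minus strand), chr3:24871336-24871337 for RARB 2 and chr11:35161034-35161035 for CD44. These 4 are shown because they lie in introns, outside untranslated sequence, and are taken up below with their read counts.
GSTP1 CpG at +564: tccttcctgttcccCGcctctcccgccatg
ABCB1 2 CpG at +421: gaggaagcatcgtcCGcggcgactggaacc
RARB 2 CpG at +522: ccagcgctgtcctgCGcaccttagggctgg
CD44 CpG at +605: aagtgagctgtctgCGaagtgcattgggct

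A feature of the RRBS values touches every mean below. Over all windows in which CpGs outside CCGG averaged at most 5% methylation (6661 in HCT15, 6610 in DU145 and 6479 in PC3), the CpGs inside CCGG had a median of 51.4%, 52.1% and 52.1%. In windows averaging at least 90% outside CCGG, those inside had a median of 94.4%, 97.0% and 95.2%. The cause was not tested. CpGs inside CCGG made up 27.6%, 26.6% and 26.9% of the CpGs, so an unmethylated window has a mean well above 0, and means over CpGs outside CCGG, an alternative chosen after seeing the data, are given beside those over all CpGs.

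The windows differed in their pattern over the cell lines. RASSF1 1 and EDNRB 2 were methylated in all 3, and APC 1 and CD44 were nearly unmethylated in all 3 outside CCGG. GSTP1, PTGS2 and ABCB1 2 were more methylated in both prostate lines than in HCT15, and RARB 2 and RARB 3 were more methylated in HCT15. EDNRB 1 was read at 4 CpGs only, and RASSF1 2 held a boundary between methylated and unmethylated CpGs. Of the CpGs near the 8 genes, 303, 288 and 325 had at least 10 reads in HCT15, DU145 and PC3, with a median methylation of 18.2%, 42.9% and 35.7% against 84.6%, 88.4% and 71.9% over all CpGs read. All CpGs read include those far from any 5′ end, so this is no comparison with other promoters. Over all windows with at least 5 CpGs, the median of the window means was 17.5%, 17.3% and 16.5%. RARB 1, RARB 4 and APC 2 had no CpG with 10 reads in any cell line, and ABCB1 1 had 2 CpGs in PC3 only, at 28.6% and 64.3%. These 4 windows have no RRBS result.

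**Figure D1:**
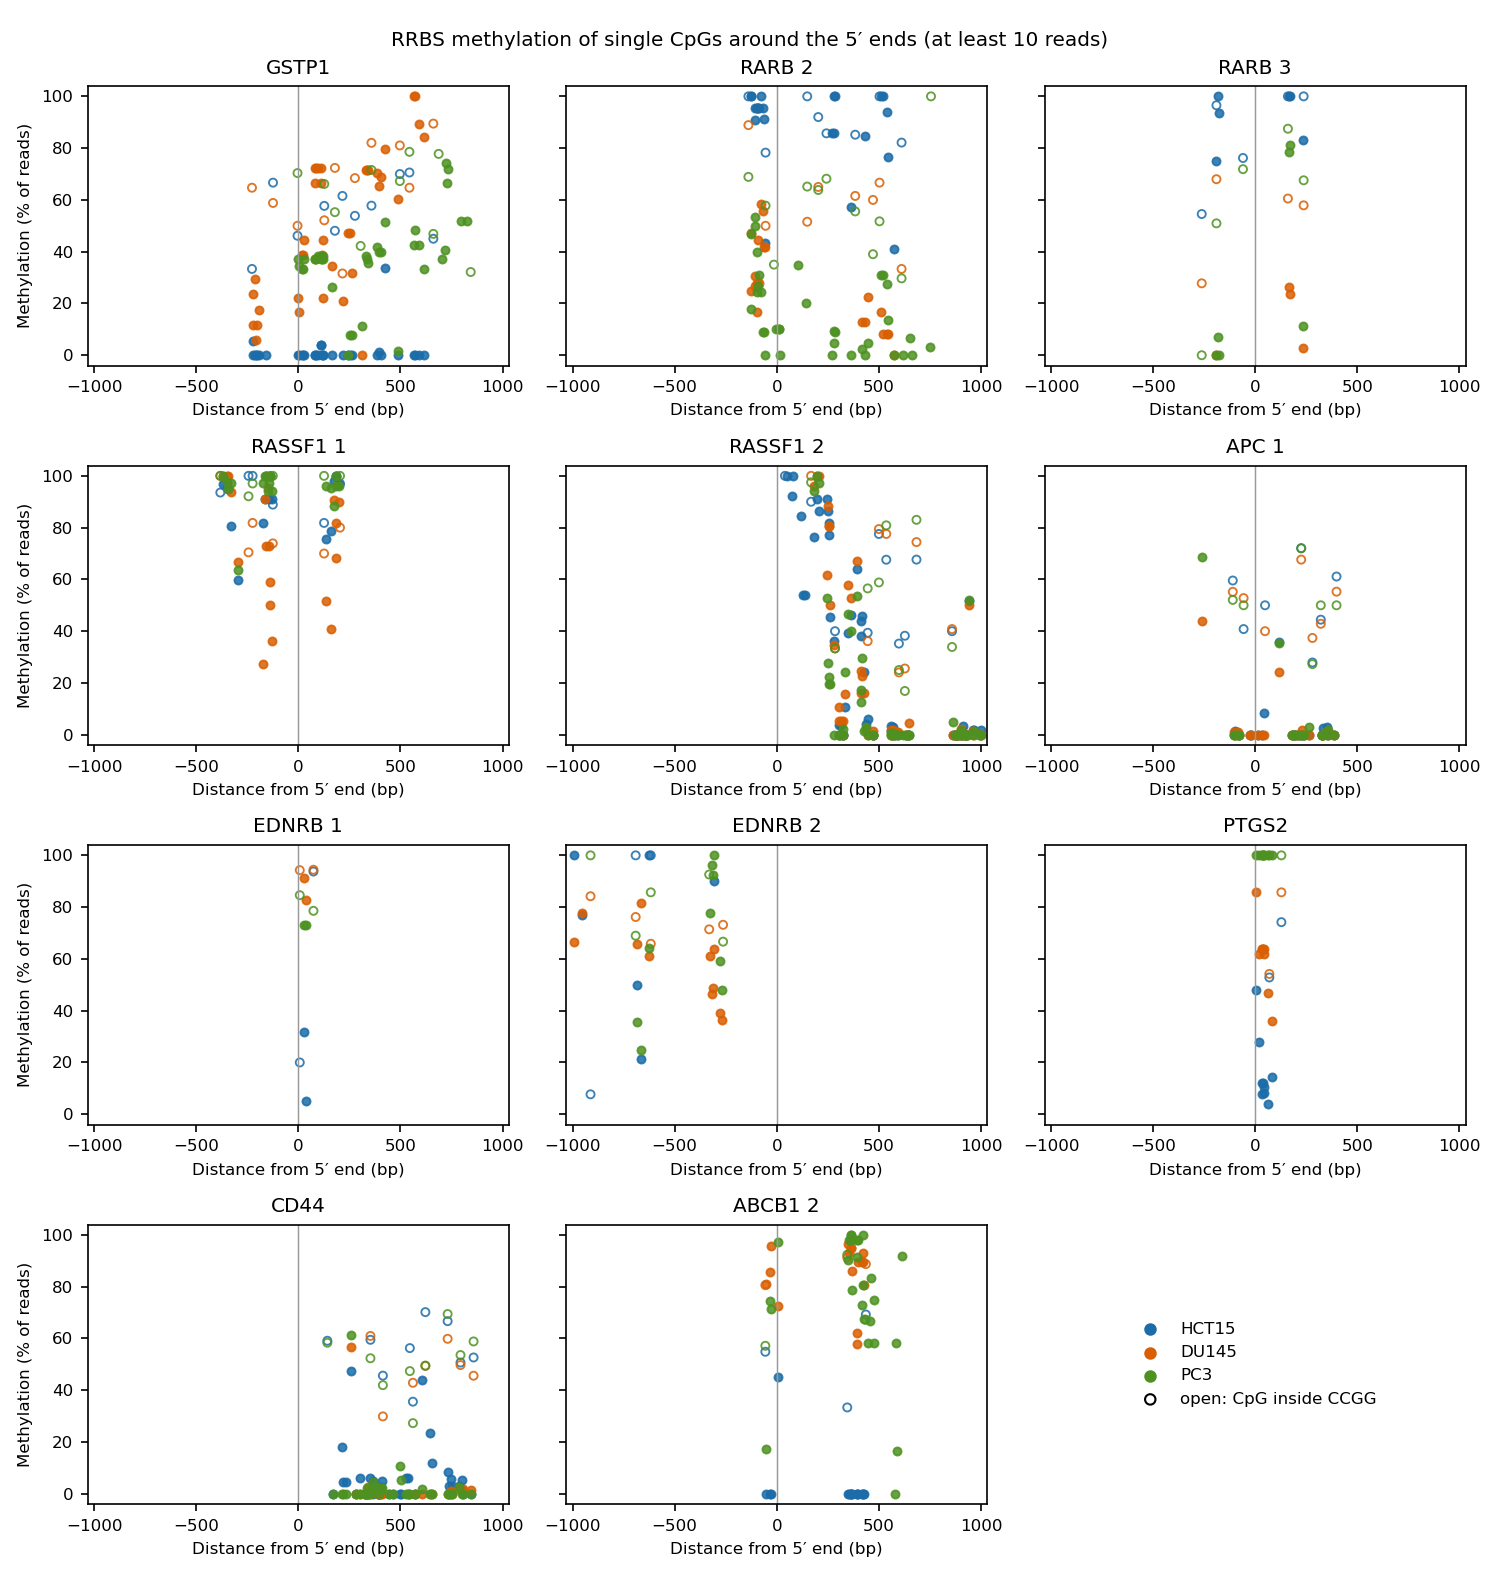
RRBS methylation of each CpG with at least 10 reads (vertical axis, percent of reads) against its distance from the 5′ end in bp, downstream to the right, for the 11 windows with RRBS data in all 3 cell lines. Open circles are CpGs inside CCGG; outside CCGG most HCT15 points of GSTP1 and ABCB1 2 lie at or near 0, the highest being 33.8% and 45.2%, and all 11 PC3 points of PTGS2 lie at 100%.

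Each CpG with at least 10 reads in both cell lines was tested by Fisher's exact test (two-sided) on methylated and unmethylated reads, adjusted over all such CpGs of the genome, and called at an adjusted p under 0.05 and a difference of at least 25 percentage points. With 1 library per cell line, the test compares 2 libraries and covers counting error only. Between DU145 and HCT15, 273 CpGs near the 8 genes were tested, of which 55 were higher and 34 lower in DU145, which is 32.6% against a background of 14.1% over all CpGs tested (6.95% higher and 7.18% lower). Between PC3 and HCT15, 53 of 276 were higher and 41 lower in PC3, which is 34.1% against 15.1% (3.8% higher and 11.3% lower). Between DU145 and PC3, 22 of 269 were higher and 27 lower in DU145, which is 18.2% against 15.5% (12.1% higher and 3.38% lower). Among CpGs outside CCGG, the shares were 37.3%, 38.4% and 21.0%, against 15.7%, 17% and 16.7%. Neighbouring CpGs share reads, so the calls within a window are not independent of each other. The test and the Wilson intervals below take each read at a CpG as a separate molecule, which was not tested.

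The calls came from few genes. Higher in DU145 than in HCT15 were 25 of 45 CpGs of GSTP1, 17 of 20 of ABCB1, 8 of 11 of PTGS2 and 5 of 13 of EDNRB, and lower were 1 of 13 of EDNRB, 25 of 33 of RARB and 7 of 86 of RASSF1. In PC3 against HCT15, 22 of 34 CpGs of GSTP1, 17 of 20 of ABCB1, 10 of 11 of PTGS2 and 4 of 11 of EDNRB were higher, and 34 of 42 of RARB and 6 of 86 of RASSF1 lower. No CpG of APC, all of them in APC 1, was called in any pair, and of CD44 1 CpG was called lower in each prostate line than in HCT15. Between the prostate lines, 12 of 38 CpGs of GSTP1 were higher in DU145, and 9 of 11 of PTGS2 lower. In RASSF1, 4 of 86 were higher and 10 lower in DU145, in RARB 4 of 36 and 3, in EDNRB 1 of 18 and 3, and in ABCB1 1 of 20 and 2.

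**Figure D2:**
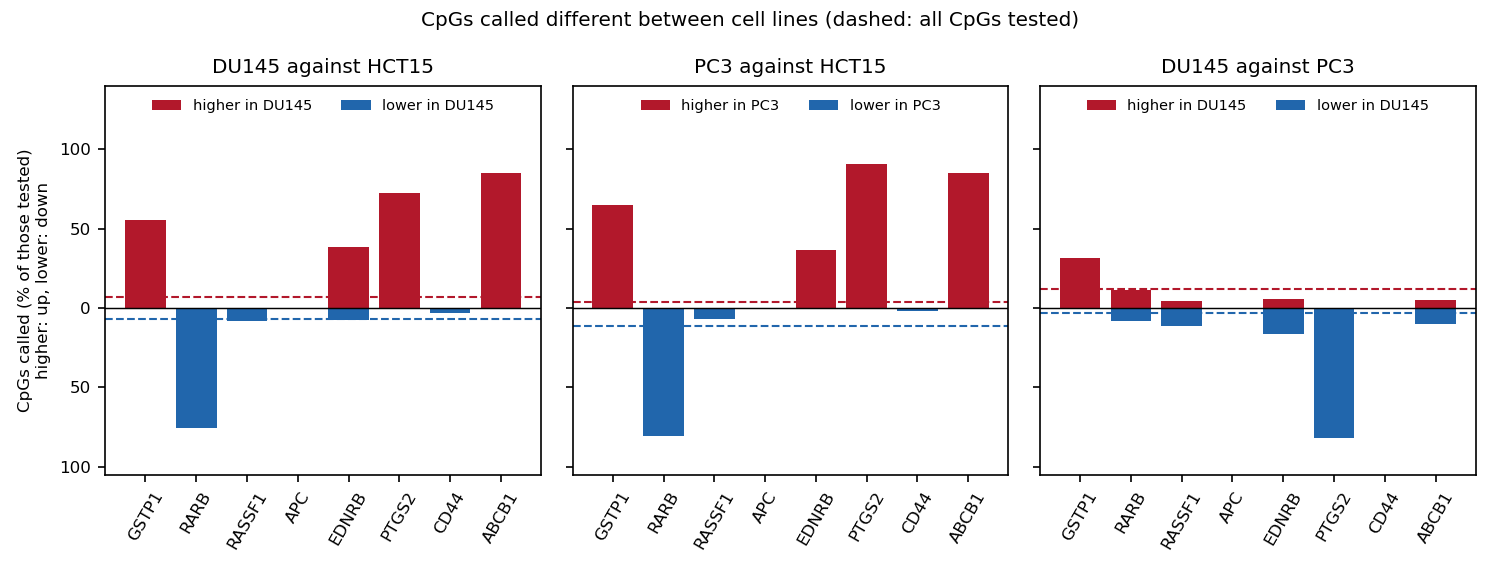
Percent of the tested CpGs of each gene called higher (red, upward) or lower (blue, downward) in the first cell line of each pair. Dashed lines give the percent over all CpGs tested in each direction, 6.95% and 7.18% for DU145 against HCT15. GSTP1, PTGS2, ABCB1 and EDNRB exceed the upper line in both prostate lines against HCT15, and RARB the lower line. In DU145 against HCT15, RASSF1 (8.14%) and EDNRB (1 of 13 CpGs) also pass the lower line.

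Over whole windows, the mean difference was taken over CpGs read in both cell lines, for windows with at least 5. Of the member windows, 5 differed by more than 25 points between DU145 and HCT15 (GSTP1, RARB 2, RARB 3, PTGS2 and ABCB1 2), the same 5 between PC3 and HCT15, and 1, PTGS2, between DU145 and PC3. Over all windows, 14.5%, 15.2% and 8.34% differed by that much, in the last pair 5.14% higher and 3.2% lower in DU145. Most of those between a prostate line and HCT15 were lower in the prostate line (12.5% in DU145 and 13.3% in PC3), and 2.01% and 1.87% were higher. GSTP1, PTGS2 and ABCB1 2 were among the higher ones in both.

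**Figure D3:**
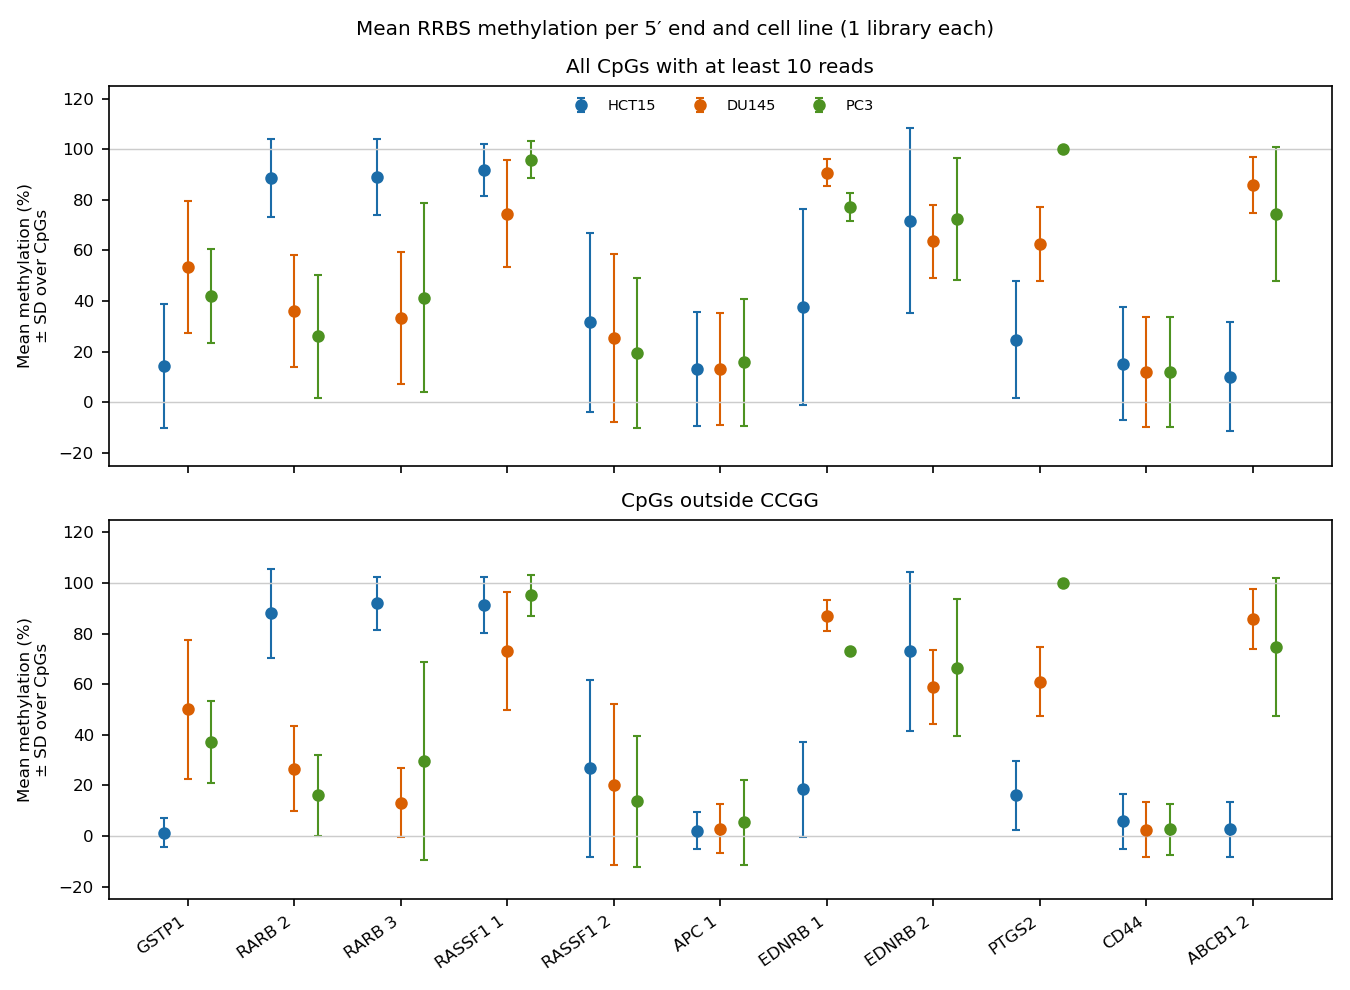
Mean RRBS methylation per window and cell line in percent, over all CpGs with at least 10 reads (top) and over CpGs outside CCGG (bottom). Bars are the SD over the CpGs of 1 library, not over replicates; without CCGG the HCT15 means of GSTP1 and ABCB1 2 lie at 1.38% and 2.66%, below those of both prostate lines.

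GSTP1, on chromosome 11 with its outermost 5′ end at 67351213, was methylated in part in both prostate lines and hardly in HCT15. The mean methylation was 14.3% ± 24.5 (SD over 46 CpGs) in HCT15, 53.4% ± 26.0 (49 CpGs) in DU145 and 42.1% ± 18.6 (48 CpGs) in PC3. Outside CCGG the means were 1.38%, 50.1% and 37.2%, so the HCT15 value lay almost wholly in CpGs inside CCGG. Over shared CpGs, DU145 exceeded HCT15 by 38.8 points and PC3 exceeded it by 26.9 points, and DU145 exceeded PC3 by 21.0 points.

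The level changed along the GSTP1 window in DU145. Outside CCGG, methylation averaged 17.5% over 7 CpGs in the 250 bp upstream of the 5′ end, the stretch printed above, then 48.1% over 16 CpGs, 58.0% over 11 and 93.4% over 4 in the next 3 bins of 250 bp. The 7 include the CpG at -1, which crosses the end of the printed stretch and is not in capitals there. PC3 had 33.5% over 15 CpGs, 28.4% over 11 and 50.8% over 9 in the same 3 downstream bins, and only 1 such CpG upstream, the one at -1. HCT15 stayed between 0% and 5.00% in each of its 4 bins. The CpG at +564 with the widest range was methylated in 0 of 20 reads in HCT15 (95% Wilson interval 0% to 16.1%), 19 of 19 in DU145 (83.2% to 100%) and 14 of 33 in PC3 (27.2% to 59.2%). All 3 pairs were called at this CpG, with Fisher's exact adjusted p of 4.14e-10 for DU145 against HCT15, 0.00332 for PC3 against HCT15 and 0.000142 for DU145 against PC3.

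ABCB1 had its result at the 5′ end of the MANE transcript, at 87230200 on the minus strand of chromosome 7 (ABCB1 2). Its mean was 10.1% ± 21.6 (SD over 20 CpGs) in HCT15, 86.0% ± 11.0 (20 CpGs) in DU145 and 74.4% ± 26.3 (29 CpGs) in PC3, and outside CCGG 2.66%, 85.9% and 74.7%. The DU145 mean exceeded 89.2% of all windows. Both prostate lines stood apart from HCT15, by 75.9 and 72.4 points over shared CpGs, and from each other by 3.49 points. The CpG at +421 was methylated in 0 of 18 reads in HCT15 (0% to 17.6%), 53 of 57 in DU145 (83.3% to 97.2%) and 52 of 52 in PC3 (93.1% to 100%). Fisher's exact adjusted p was 2.81e-12 for DU145 and 2.63e-15 for PC3 against HCT15, and 0.392 between the prostate lines. Within PC3 the methylated stretch was uneven, with a mean outside CCGG of 54.3% over 3 CpGs just upstream, 84.2% over 18 CpGs at 250 to 500 bp downstream and 41.7% over 4 CpGs, from 0% to 91.7%, at 500 to 750 bp.

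RARB, on chromosome 3, showed the opposite order at both of its windows with RRBS data. At RARB 2 (5′ end at 24870814) the mean was 88.6% ± 15.6 (SD over 31 CpGs) in HCT15, 36.1% ± 22.2 (28 CpGs) in DU145 and 26.0% ± 24.4 (46 CpGs) in PC3, with 88.0%, 26.7% and 16.0% outside CCGG. At RARB 3, the 5′ end of the MANE transcript at 25469754, the means were 89.0% (11 CpGs), 33.4% (8 CpGs) and 41.4% (11 CpGs), and 92.0%, 13.2% and 29.6% over 6, 4 and 6 CpGs outside CCGG. Over shared CpGs, DU145 minus HCT15 was -52.7 points at RARB 2 and -55.3 at RARB 3, and PC3 minus HCT15 was -59.0 and -47.6 points. The prostate lines were partly methylated upstream of RARB 2, at 36.95% over 12 CpGs in DU145 and 26.3% over 13 in PC3 outside CCGG in the stretch printed above, and less so beyond 250 bp downstream, at 3.81% to 16.1% in the 2 bins of 250 bp that follow. The CpG at +522 was methylated in 17 of 17 reads in HCT15, 1 of 12 in DU145 and 9 of 29 in PC3 (Fisher's exact adjusted p 5.44e-06 and 2.67e-05 against HCT15, and 0.62 between the prostate lines). At RARB 3, the CpG at +232 in an untranslated exon had 10 of 12, 1 of 37 and 4 of 36 reads methylated (adjusted p 1.45e-06, 0.000105 and 0.561 in the same order).

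EDNRB, on the minus strand of chromosome 13, was read at few CpGs. At EDNRB 1 (78549664) the mean over the same 4 CpGs was 37.6% in HCT15, 90.8% in DU145 and 77.3% in PC3, which is under the 5 shared CpGs asked for, and 2 of the 4 lie inside CCGG. The CpG at +36 was methylated in 2 of 38 reads in HCT15, 58 of 70 in DU145 and 38 of 52 in PC3, with Fisher's exact adjusted p of 2.68e-14 and 6.82e-10 against HCT15 and 0.675 between the prostate lines. At EDNRB 2, the end of the MANE transcript at 78492966, the reads fell 250 to 1000 bp upstream, and all 3 lines were at similar means of 71.8% (9 CpGs), 63.7% (16 CpGs) and 72.4% (14 CpGs). Over shared CpGs the differences there were -0.36 points for DU145 and 1.51 points for PC3 against HCT15, with single CpGs from 7.69% to 100% in HCT15. At -912, inside CCGG, 1 of 13 reads was methylated in HCT15, 16 of 19 in DU145 and 10 of 10 in PC3. Fisher's exact adjusted p at this CpG was 0.000331 for DU145 and 0.000121 for PC3 against HCT15, and 0.983 between the prostate lines. Both windows overlap the long noncoding gene OBI1-AS1.

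PTGS2, on the minus strand of chromosome 1 with its outermost 5′ end at 186650054, had a different level in each cell line. The same 11 CpGs, all within 250 bp downstream, averaged 24.8% ± 23.2 (SD) in HCT15, 62.6% ± 14.5 in DU145 and 100% ± 0 in PC3. Their coverage summed to 460, 1025 and 315, where a read over several CpGs counts at each of them, and its median per CpG was 49, 100 and 33 reads. In PC3 every read was methylated at each of the 11 CpGs, and the PC3 mean exceeded 99.9% of all windows. Outside CCGG the means were 16.1%, 61.0% and 100%. At the CpG at +63, in an untranslated exon, 1 of 25 reads was methylated in HCT15, 23 of 49 in DU145 and 17 of 17 in PC3, and Fisher's exact adjusted p was 0.00141 and 2.01e-09 against HCT15 and 0.000379 between the prostate lines. The window overlaps PACERR, a noncoding gene, and the CpGs read lie upstream of the MANE start of PTGS2, which is 499 bp downstream of the outermost end.

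RASSF1, on the minus strand of chromosome 3, was methylated in every line at its outermost 5′ end (RASSF1 1, 50378367). The mean over the same 25 CpGs was 91.8% ± 10.2 (SD) in HCT15, 74.6% ± 21.1 in DU145 and 95.9% ± 7.34 in PC3. Leaving out CCGG gave 91.2%, 73.0% and 95.1%. The PC3 mean exceeded 97.0% of all windows. The difference of DU145 was -17.2 points from HCT15 and -21.3 points from PC3, under the limit of 25. This dip in DU145 lay close to the 5′ end, with 63.1% over 8 CpGs outside CCGG in the 250 bp upstream and 92.1% over 5 CpGs in the 250 bp before those. The CpG at -172 was methylated in 9 of 11 reads in HCT15, 6 of 22 in DU145 and 33 of 34 in PC3, with Fisher's exact adjusted p of 0.0477 for DU145 against HCT15 and 4.69e-07 for DU145 against PC3. The window also overlaps the neighbouring gene ZMYND10, so its methylation cannot be assigned to RASSF1 alone.

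The internal 5′ end of RASSF1 (RASSF1 2, 50375664) had low means that hide a boundary. The means were 31.6% (68 CpGs), 25.4% (61 CpGs) and 19.5% (62 CpGs) in HCT15, DU145 and PC3. Outside CCGG, methylation averaged 82.9%, 89.4% and 86.1% over 10, 4 and 4 CpGs in the first 250 bp downstream, then 29.9%, 28.9% and 14.5% over 22 CpGs, and 0.89%, 1.10% and 0.15% over 10, 10 and 11 CpGs at 500 to 750 bp. All 3 lines thus passed from methylated to nearly unmethylated over about 500 bp. At the CpG at +254, in a coding exon, 18 of 22 reads in HCT15, 21 of 26 in DU145 and 7 of 36 in PC3 were methylated, with Fisher's exact adjusted p of 7e-05 for PC3 against HCT15, 2.47e-05 for DU145 against PC3 and 1 for DU145 against HCT15.

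APC 1, the only APC window read by RRBS, and CD44 were low in all 3 lines. At APC 1 on chromosome 5 (112043215), the mean was 13.1% (31 CpGs) in HCT15, 13.3% (32 CpGs) in DU145 and 15.8% (26 CpGs) in PC3, and 2.14%, 2.94% and 5.44% outside CCGG. In the stretch printed above, the 6 CpGs read outside CCGG in HCT15 and in DU145 averaged 0.23% and 0.40%, and the 4 in PC3 0%, while the 2 inside CCGG averaged 50.2%, 54.0% and 51.0%. Among its CpGs read in all 3 lines, the widest range, 12.0 points, was at -57 inside CCGG, and no pair was called there (Fisher's exact adjusted p 0.549, 0.969 and 1). The end of the MANE transcript (APC 2, 112073582), 30367 bp downstream of APC 1, had no CpG with 10 reads, so RRBS gives no level for it.

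At CD44 on chromosome 11 (35160429), the mean was 15.2% (47 CpGs) in HCT15, 12.0% (34 CpGs) in DU145 and 11.9% (47 CpGs) in PC3, and 5.79%, 2.57% and 2.63% outside CCGG. Its only called CpG was at +605 in an intron, methylated in 39 of 89 reads in HCT15 (34.0% to 54.2%), 0 of 98 in DU145 and 2 of 110 in PC3 (0.50% to 6.39%). Fisher's exact adjusted p was 4.3e-14 and 1.15e-12 against HCT15 and 0.963 between the prostate lines. With 98 reads, 0 methylated reads in DU145 allow a methylation of up to 3.77% by the Wilson interval. The nearby CpG at +570 had 45, 49 and 55 reads in HCT15, DU145 and PC3, against 89, 98 and 110 at +605. The interval and the test take every read as a separate molecule, which was not tested. If some molecules were counted more than once, the limit is too low and the p-values are too small.

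The pattern over the 3 cell lines was common for some of these windows and rare for others. Of 13712 windows of other genes with at least 10 CpGs per cell line, 4154 (30.3%) had all 3 means within 5 points of those of APC 1, and 3999 (29.2%) of those of CD44. For GSTP1 the number was 2 (0.0146%), among them TJP3, at 18.1%, 50.5% and 40.1% in HCT15, DU145 and PC3. No window came within 5 points of ABCB1 2 or PTGS2, whose nearest were HNF4A (19.6%, 95.9% and 65.7%) and the histone gene H4C4 (27.9%, 68.4% and 96.5%). For RARB 2 there were 24, of which LRRFIP1 was nearest at 89.4%, 36.6% and 26.8%, for RASSF1 1 there were 11, and for RASSF1 2 there were 76 with PDZD2 nearest. These counts include CpGs inside CCGG.

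Genes of the same pathways were set beside the 8 in 8 lists of 94 genes with 132 windows. Between DU145 and HCT15, 3 of 87 tested windows were higher by more than 25 points in DU145 and 10 lower, and over all 16566 windows tested 333 were higher and 2077 lower. Between PC3 and HCT15, 1 of 88 was higher and 9 lower, against 296 and 2112 of 15831. Between DU145 and PC3, 3 of 87 were higher in DU145 and 6 lower, against 809 and 503 of 15728. The median difference over the listed windows was 0.04, -0.30 and 0.09 points in these pairs.

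No glutathione transferase window other than GSTP1 differed by that much from HCT15 in either prostate line, of 10 and 8 tested. GSTM1 differed between the prostate lines, at 29.2% in DU145 and 61.8% in PC3. Of the ABC drug transporters, ABCG2, another efflux pump, was methylated in PC3 only among the 3 lines, at 94.4% against 12.0% in HCT15 and 12.3% in DU145, and no other window of that list passed 25 points, of 5 tested between DU145 and HCT15 and 6 between PC3 and HCT15. Among 18 retinoid windows, 5 were lower in DU145 than in HCT15 and 1 higher, and 3 were lower in PC3. LRAT, which esterifies retinol, was at 10.8% in DU145 against 98.03% in HCT15, and CRABP1, which binds retinoic acid, at 28.9% against 86.0%. RXRA 2, a window of a partner of the retinoic acid receptors, was the higher one, at 95.9% against 47.9%.

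Among the RASSF family and Hippo kinases, 4 of 15 windows were lower in DU145 than in HCT15, with RASSF2 at 15.2% against 86.5%, and 1 of 16 in PC3. In the prostanoid list, PTGS1, the constitutive cyclooxygenase, was at 57.7% in DU145 against 16.7% in HCT15 at its first window, and at 29.1% in PC3 against 90.6% in HCT15 at its second, over 5 CpGs. PTGER3, a prostaglandin receptor, was also lower in PC3, at 64.4% against 96.6% in HCT15. Among the endothelin genes, EDN3, a ligand of EDNRB, was at 76.8% in DU145 and 35.7% in PC3, and at 66.6% in HCT15 over the CpGs shared with PC3. In the list of the beta-catenin destruction complex, 1 window passed 25 points, APC2 at 51.8% in PC3 against 81.4% in HCT15. In the hyaluronan list, MSN, which links CD44 to actin, was at 22.03% in DU145 against 87.4% in HCT15, and HYAL2, a hyaluronidase, at 95.5% against 69.7%. HAS1, a hyaluronan synthase, was at 45.1% in PC3 against 80.7% in HCT15.

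MBD-seq gave few fragments at most of these windows. In the sum over the 4 kits other than MethylMiner, RASSF1 1 had 76 fragments for HCT15, 10 for DU145 and 60 for PC3, which is 20.4, 14.7 and 42.3 times what a uniform spread of the libraries over the genome would give. EDNRB 2 had 21, 5 and 17 fragments (5.63, 7.35 and 12.0 times uniform) and RASSF1 2 had 21, 2 and 8 (5.63, 2.94 and 5.65 times). RASSF1 1 and EDNRB 2 are the 2 windows with RRBS means above 50% in all 3 lines. APC 1 had 2, 0 and 1 fragments and CD44 had 1, 0 and 1, and ABCB1 1 and RARB 4 had none in these kits. APC 2, which RRBS did not cover, had 4, 2 and 7 (1.07, 2.94 and 4.94 times uniform).

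**Figure D4:**
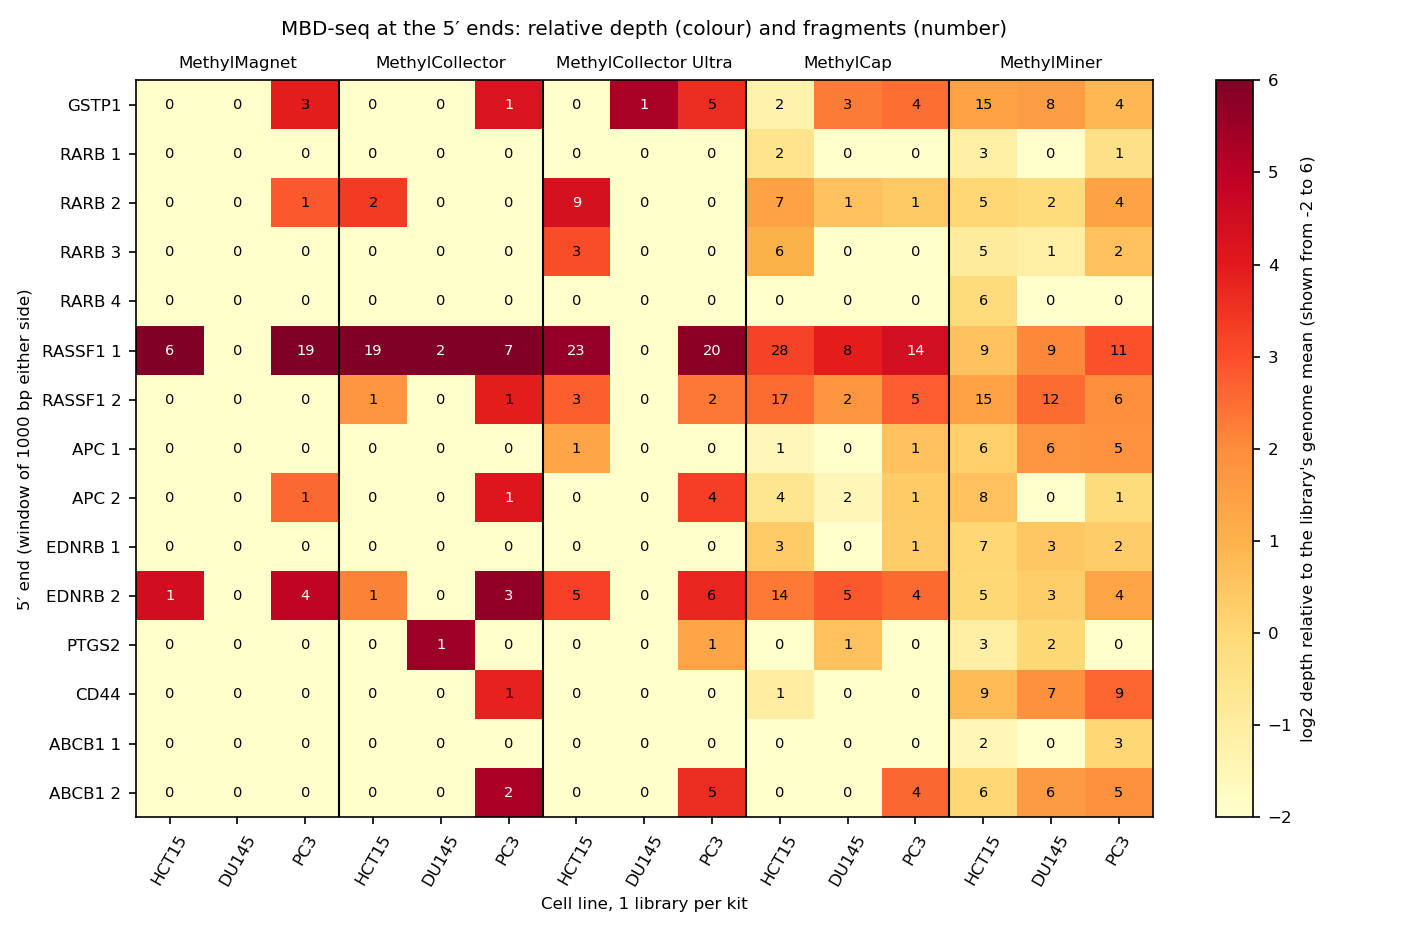
MBD-seq at the 15 windows (rows) in the 15 libraries (columns, grouped by kit). Numbers are fragments and colour is the log2 of the depth relative to the genome mean of the same library, shown from -2 to 6; RASSF1 1 has 19 to 28 fragments in HCT15 with MethylCollector, MethylCollector Ultra and MethylCap, and GSTP1 has fragments in all 5 PC3 libraries.

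At GSTP1, HCT15 had 0 fragments with MethylMagnet, MethylCollector and MethylCollector Ultra, 2 with MethylCap and 15 with MethylMiner. DU145 had 0, 0, 1, 3 and 8 in the same order, and PC3 3, 1, 5, 4 and 4. The 4 kits other than MethylMiner summed to 2, 4 and 13 fragments, or 0.54, 5.88 and 9.17 times uniform, so that both prostate lines lay above HCT15 there. With MethylCap alone, the levels were 0.67, 4.78 and 5.49 times uniform, from 2, 3 and 4 fragments. The 1 Mb around GSTP1 was itself deep with this kit, at 3.85, 3.82 and 4.07 times the genome mean. MethylMiner placed 15 fragments in HCT15, the line with the lowest RRBS level, at 2.64 times its genome mean, against 2.95 times in DU145 and 1.82 times in PC3.

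At ABCB1 2, PC3 had 0, 2, 5, 4 and 5 fragments with MethylMagnet, MethylCollector, MethylCollector Ultra, MethylCap and MethylMiner. HCT15 and DU145 had none with any kit but MethylMiner, which gave 6 in each. The PC3 level in the sum of 4 kits was 7.76 times uniform, from 11 fragments. In HCT15, 0 fragments summed over 4 libraries allow up to 0.80 times uniform, the level of 3 fragments. The PC3 level was 9.66 times this limit, a ratio that leaves out the counting error of the PC3 fragments. In DU145, which RRBS found methylated at 86.0%, 0 fragments allow up to 4.41 times uniform. The PC3 level was 1.76 times the DU145 limit by the same ratio, although the RRBS mean was lower in PC3 (74.4%). With all kits, edgeR's adjusted p for DU145 against PC3 was 0.582 at this window.

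At RARB 2, HCT15 had 0, 2, 9, 7 and 5 fragments in that order of kits, DU145 0, 0, 0, 1 and 2, and PC3 1, 0, 0, 1 and 4, which is 4.82, 1.47 and 1.41 times uniform without MethylMiner. At RARB 3, HCT15 had 3 fragments with MethylCollector Ultra and 6 with MethylCap, and the other 2 lines had none in the 4 kits. The HCT15 level was 2.41 times uniform, and the level of 3 fragments was 2.12 times in PC3 and 4.41 times in DU145. These values leave out the counting error of the 9 HCT15 fragments, so no excess of HCT15 over either line was bounded. At PTGS2 the 4 kits gave 0, 2 and 1 fragments in HCT15, DU145 and PC3, and the fully methylated PC3 window was at 0.71 times uniform. In MethylMiner, the 1 Mb around PTGS2 had a depth of 0.379 times the genome mean in PC3, 0.632 in HCT15 and 0.732 in DU145, and the part of this in the PTGS2 result was not tested.

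The fragments per window were compared by edgeR's quasi-likelihood test with kit as a block, over the 19062 windows with at least 15 fragments in all libraries together. Of the 15 member windows, 11 passed this minimum, and PTGS2, ABCB1 1, RARB 1 and RARB 4 did not. Between PC3 and HCT15, 1 of the 11 was called, ABCB1 2, higher in PC3 with a log2 fold change of 3.12 (SE 0.73) and an adjusted p of 0.00276, against a background of 3.12% of all windows (0.797% higher and 2.32% lower). This call was lost without MethylCap (log2 2.56, edgeR's adjusted p 0.0731), without MethylCollector Ultra (2.85, 0.0828) and with TMMwsp factors (3.02, 0.0548), and DESeq2 gave the window no adjusted p. Without MethylMiner it had 11 fragments and fell under the minimum, and without that minimum the log2 change was 4.95 (edgeR's adjusted p 4.65e-05).

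GSTP1 and RARB 2 turned on the MethylMiner libraries. With all kits, GSTP1 had a log2 change of 1.69 between PC3 and HCT15 (edgeR's adjusted p 0.162) and RARB 2 of -0.78 (0.705). Without MethylMiner, 5 member windows passed the minimum and 2 were called, against 24.1% of the 7962 windows then tested (3.43% higher and 20.7% lower), GSTP1 higher in PC3 with 3.21 (SE 0.78, edgeR's adjusted p 0.000842) and RARB 2 lower with -2.30 (SE 0.82, 0.0280). Without the minimum on fragments as well, 6.97% of 22689 windows were called, GSTP1 (edgeR's adjusted p 0.00229) and ABCB1 2 among them and RARB 2 not (0.0740). In the 4 kits, GSTP1 had met the minimum with 2, 4 and 13 fragments in HCT15, DU145 and PC3, and RARB 2 with 18, 1 and 2. Each passed largely through the line in which it was high, so the 2 calls made with the minimum are not independent of it.

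Between DU145 and HCT15, edgeR called 0 of the 11 windows, against 0.0367% of all windows. At an unadjusted p under 0.05 there was 1, GSTP1, with a log2 change of 1.56 (unadjusted p 0.0340 by edgeR). DESeq2 gave an adjusted p to 2 of the windows and called 0, with 0 at an unadjusted p under 0.05. Without MethylMiner, edgeR called 0 of 5 windows, against 2.06% of all, with GSTP1 at a log2 change of 3.10 (SE 1.01, edgeR's adjusted p 0.0818). Between DU145 and PC3, 0 were called, against 0.346% of all windows (0.283% higher and 0.063% lower), with 0 at an unadjusted p under 0.05. DESeq2 gave an adjusted p to 2 of the windows and called 0, with 1 at an unadjusted p under 0.05. Without MethylMiner, edgeR called 0 of 5, against 2.62% of all, with 0 at an unadjusted p under 0.05. The 4 kits other than MethylMiner would have given 0.68 fragments per window in DU145 under a uniform spread, against 3.73 in HCT15 and 1.42 in PC3. Simulated data for DU145 against HCT15 held 19062 windows, the number tested with all kits. There, 52% of windows lowered 8-fold in DU145 and 100% of those raised 8-fold were called.

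The direction of the MBD-seq difference was set beside that of RRBS for windows past 25 points. Between DU145 and HCT15 it was the same in 4 of the 4 member windows tested (GSTP1, RARB 2, RARB 3 and ABCB1 2), and in 80.3% of all such windows. Between PC3 and HCT15 it was the same in these 4 of 4, and in 89.3% of all. Without MethylMiner, the 2 member windows that could be tested, GSTP1 and RARB 2, had the same direction in both pairs, as did 86.1% and 93.2% of all such windows. These windows met the minimum of 15 fragments largely through 1 line, RARB 2 with 18, 1 and 2 fragments in HCT15, DU145 and PC3, and GSTP1 with 2, 4 and 13. With all kits, RARB 3 had 14, 1 and 2. The direction is thus set in part by the minimum and is no separate support. Of the 4, with all kits, edgeR called only ABCB1 2, in PC3. For ABCB1 2 in DU145, where only MethylMiner had fragments in either line, the direction rests on that kit.

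At the level of single CpGs outside CCGG near the 8 genes, MethylCap covered 9.27% of those at most 20% methylated in HCT15, 64.7% of those at 20 to 80% and 78.8% of those at least 80%, against 10.4%, 61.5% and 80.7% over all such CpGs. In DU145 the shares were 8.82%, 30.6% and 45.9%, against 5.37%, 24.4% and 31.8% over all such CpGs. In PC3 they were 11.45%, 49.4% and 66.0%, against 6.42%, 27.3% and 41.3%. MethylMiner covered 72.8%, 73.5% and 53.8% in HCT15, 51 of 102, 18 of 85 and 23 of 37 CpGs in DU145, and 66.4%, 39.2% and 59.6% in PC3. Over all such CpGs it covered 60.1%, 55.5% and 60.8% in HCT15, 38.7%, 30.5% and 33.4% in DU145 and 37.3%, 26.9% and 30.6% in PC3. Pooled over the CpGs of the 8 genes, the MethylCap share thus rose with the RRBS class in each line, and the MethylMiner share did not in any. Neighbouring CpGs can lie under the same fragment, and single windows departed from this order. MethylCap had 0 fragments at PTGS2 in PC3 and at ABCB1 2 in DU145, with RRBS means of 100% and 86.0%. With MethylCollector Ultra, 8 of 151, 17 of 34 and 32 of 52 CpGs lay under a fragment in HCT15, and 8.40%, 27.8% and 66.0% in PC3. In DU145, these were 1 of 102, 4 of 85 and 0 of 37 CpGs. Over all CpGs, its shares were 4.81%, 27.1% and 44.98% in HCT15, 6.66%, 22.8% and 37.3% in PC3 and 0.79%, 2.28% and 3.17% in DU145.

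**Figure D5:**
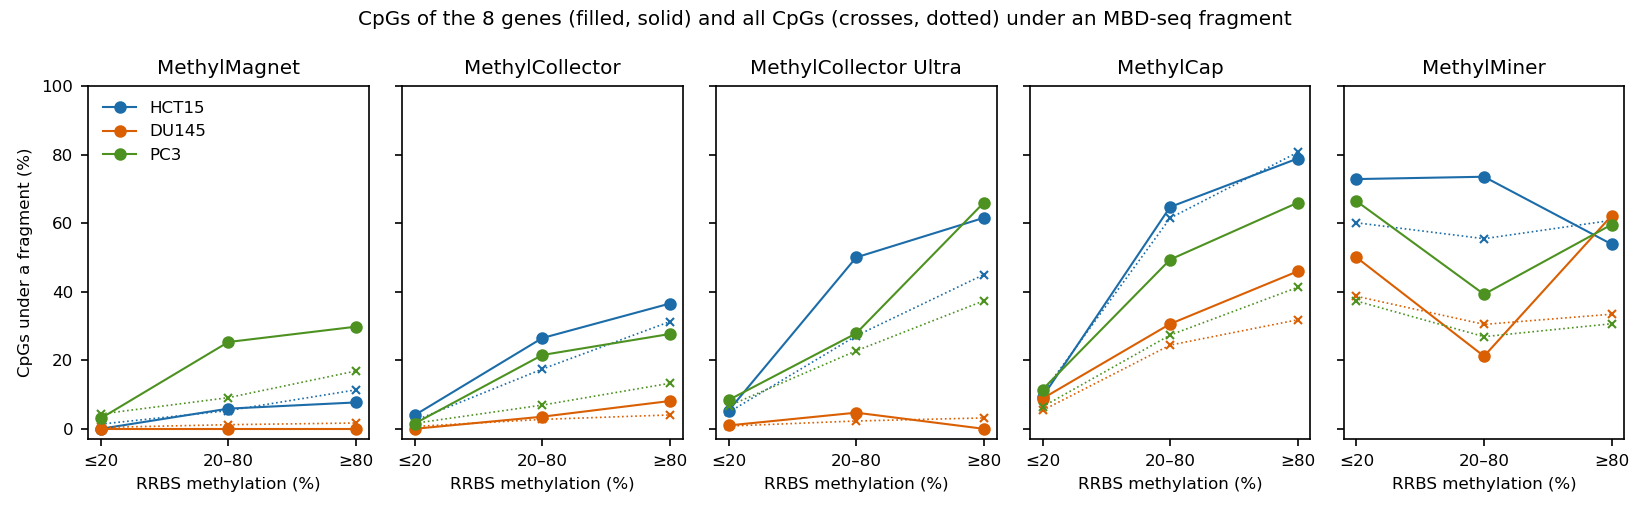
Percent of CpGs outside CCGG that lay under an MBD-seq fragment, by RRBS methylation class (horizontal axis) and kit (panels), with the CpGs of the 8 genes as filled points and solid lines and all CpGs as crosses and dotted lines. With MethylCap the share of the members' CpGs rises in each cell line, from 9.27% to 78.8% in HCT15, and with MethylMiner it goes from 72.8% to 53.8% in HCT15.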

How the data were processed

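Each of the 3 cell lines gave 1 RRBS library and 5 MBD-seq libraries, 1 per kit. The RRBS files give, as counts deposited by the authors, the methylated and the total reads at each CpG on both strands together, from a coverage of 6. The MBD-seq files give a deposited signal, the depth of uniquely mapped fragments after removal of duplicates, not scaled for library size. Read pairs were mapped with BOWTIE to NCBI build 37 (hg19). The kits were used at their highest salt concentration.

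CpGs were read from GRCh37, and 5′ ends from GENCODE 44. The first end of a gene is its outermost, and further ends lie over 1000 bp from those kept before, by the same rule for all genes. Fragments in a window were counted as the depth at its first base plus the rises of the depth inside it. RRBS counts were tested by Fisher's exact test with Benjamini-Hochberg adjustment over all CpGs. Fragment counts were tested by edgeR's quasi-likelihood test with the log of the total fragments as offset. Both were tested on simulated data, where 61.5% of CpGs changed by 50 points and 100% of windows raised 8-fold were called, for the latter in PC3 against HCT15 and in DU145 against HCT15. Wilson intervals at the 95% level and the level of 3 fragments cover counting error only, and the depths per library set them.

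The genes and pathway lists were chosen with earlier results of these data known, although no measured level enters the rule. The text names every window of the 8 genes, in each the CpG with the widest range over the 3 cell lines, the nearest windows, of which some are not reported here, and related genes past 25 points. Leaving out CpGs inside CCGG, and leaving out MethylMiner together with the minimum on fragments, were chosen after seeing the data. The other alternatives were a coverage of 6 or 20, 500 or 2000 bp either side, a difference of 50 points, DESeq2, TMMwsp factors, no filter on fragments, no kit block and each kit left out. Tools were edgeR 4.0.16 and DESeq2 1.42.0 in R 4.3.3, and numpy 2.4.6, scipy 1.17.1, numba 0.67.0 and pandas 2.3.3 in Python 3.11.15.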

Additional observations from a re-analysis of the deposited data

How the results depend on the processing

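For RRBS, no paired analysis was possible because each cell line has 1 library. The MBD-seq libraries carry no replicate numbers but are matched across lines by kit, which is the block in the edgeR fit, and leaving out this block left the number of windows called in each pair as it was. Of 89, 94 and 49 CpGs called in DU145 against HCT15, PC3 against HCT15 and DU145 against PC3, a coverage of at least 20 left 45 in the first pair and 61 in the second, and a difference of at least 50 points left 57 in the second and 17 in the third. The windows past 25 points numbered 5, 5 and 1 in these pairs, and 4 to 5, 4 to 5 and 1 under the alternatives computed. For PC3 against HCT15, the 1 window called by edgeR became 0 with DESeq2, with TMMwsp factors, without MethylCollector Ultra and without MethylCap, and 2 without MethylMiner, with or without the minimum on fragments. Of 171 RRBS differences of single windows recomputed, all 171 kept their side of 25 points, and 8 changed sign, each with a difference of at most 3.49 points as reported. Of 235 recomputed window means, 71 moved by more than the spread allowed, and of 363 recomputed MBD-seq changes, 7 changed their call, and 34 changed sign, none of them of a called window, with log2 changes of at most 0.84 as reported. The depth limits DU145 most, since its MethylMagnet, MethylCollector and MethylCollector Ultra libraries held 10040 to 30336 fragments.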
